A study of Mus musculus with 24 samples.

Results

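In the spinal cord, the lateral (LMC) was compared with the medial motor column (MMC) in mice with spinal muscular atrophy (SMA), a motor neuron disease caused by too little of the survival motor neuron protein. The comparison rests on 6 of the 24 arrays of the series, 3 labelled SMA LMC and 3 labelled SMA MMC, taken by their labels alone. The groups compared are SMA LMC, SMA MMC, wild-type (WT) LMC and WT MMC, each with 3 biological replicates from FVB mice at postnatal day 4. The alleles behind the SMA label, the way the columns were collected, and whether a replicate was 1 animal or a pool are not given in the sources used here. The p-values therefore measure a spread between samples and not between known animals. That spread was pooled over all 24 arrays of 8 groups, which include dorsal root ganglion and raphe samples of both genotypes. Total RNA was taken with a kit for very small samples, the complementary DNA was amplified from picogram inputs, and the product was hybridised to Illumina bead arrays. Levels are log2 intensities after background correction and quantile normalization, so a difference of 1 is a factor of 2, and all differences are SMA LMC minus SMA MMC unless WT is named.

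Motor neurons are arranged in columns by the muscles they serve. Neurons of the MMC run along the whole cord and innervate the muscles of the back, while neurons of the LMC lie at limb levels and innervate limb muscle. During development the LIM homeodomain factor Lhx3 is kept in MMC neurons and lost from LMC neurons, whereas Foxp1 and the retinoic acid synthesis enzyme Aldh1a2 mark the LMC, and Hox genes set the position along the cord. In mouse models of SMA, medial motor neurons are among the most affected, and p53 targets are known to be raised in vulnerable motor neurons. The first postnatal week is also when oligodendrocytes of the ventral cord begin to make myelin.

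Between 33.7% and 42.4% of the probes on the SMA LMC arrays, and between 39.1% and 43.3% on the SMA MMC arrays, were above background, meaning a deposited detection p-value under 0.05. SMA LMC replicate 2 stood apart, with the 33.7% and a correlation of 0.826 to 0.827 with its own group, where the other SMA LMC pair reached 0.955. The SMA MMC arrays correlated at 0.9 to 0.921. All SMA and WT LMC arrays lie on 1 chip of 6 and all SMA and WT MMC arrays on another, so chip and column cannot be told apart for any difference below. Smn1, the gene whose loss causes SMA, was not above background on any of the 6 SMA arrays, at 4.51, 4.85 and 4.98 in SMA LMC, against 4.52, 4.58 and 4.43 in SMA MMC. On the WT arrays its level was 10.38, 9.45 and 9.91 in WT LMC, against 9.81, 9.63 and 10.84 in WT MMC. The arrays were labelled as motor neurons in the series title. The defining markers Chat, Isl1 and Mnx1 were above background on all 6 arrays. Some markers of oligodendrocytes, astrocytes and inhibitory neurons were as well, though not every one, as Agt below shows. The samples therefore hold RNA typical of other cells, and how it came to be there was not tested.

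A total of 8902 genes was above background on all 3 arrays of at least 1 SMA group and was tested. Of these, 772 passed an adjusted p of 0.05 (8.67%), 476 higher in SMA LMC (5.35%) and 296 lower (3.33%). The median difference over all genes tested was 0.08, and 55% of the differences were above 0. The higher genes included neuronal and motor neuron genes, among them the peptide gene Nts, Isl1, Chodl, Mmp9 and the potassium channel subunit Kcnab1. The lower genes were led by the myelin genes Mag, Mbp and Cldn11, the astrocyte gene Gfap, the arginine deiminase Padi1 and Fam183b. These counts use a spread pooled over 8 groups. With the spread taken from the 12 motor column arrays the counts were 119 higher and 66 lower, with the 6 SMA arrays alone 12 higher and 14 lower, without SMA LMC replicate 2 195 higher and 128 lower, without SMA MMC replicate 1 279 higher and 196 lower, and without SMA LMC replicate 3 610 higher and 480 lower. Without the quantile step 76% of the calls were higher (662 higher, 209 lower), against 61.7% with it.

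**Figure D1:**
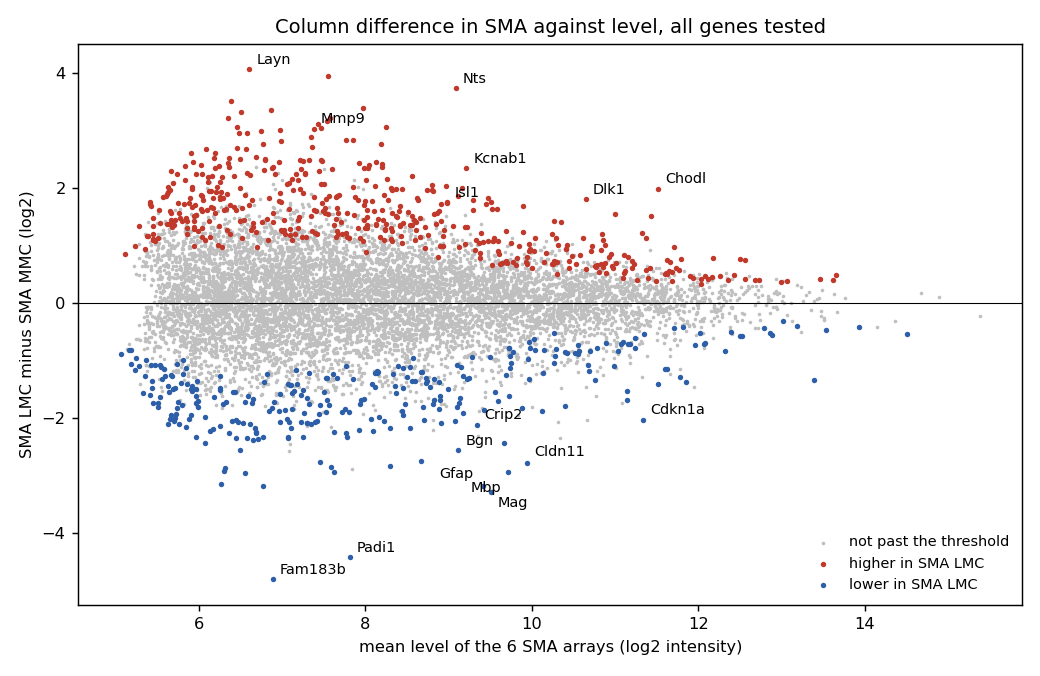
Each point is 1 of the 8902 genes tested, with its mean level on the 6 SMA arrays (log2 intensity) on the horizontal axis and the SMA LMC minus SMA MMC difference (log2) on the vertical axis. Red points passed the threshold and were higher in SMA LMC, blue points passed and were lower. Mag, Mbp, Gfap and Cldn11 lie at -2.77 or below at high levels, and Nts lies at 3.73.

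Of 19 motor neuron markers tested, 6 were higher in SMA LMC, where 5.35% of all genes tested were, and 0 were lower, and the median difference was 0.13, close to the 0.08 of all genes. With the spread of the 12 motor column arrays 5 were higher, and with that of the 6 SMA arrays 1. Isl1, a LIM homeodomain factor of motor neurons that stays on in medial LMC neurons, had levels of 9.90, 10.14 and 9.52 in SMA LMC, against 7.60, 8.24 and 8.47 in SMA MMC. The groups did not overlap, as they did not for 25.1% of all genes tested, and the difference was 1.75 (SE 0.28, adjusted p = 0.000628). Chodl, chondrolectin, a marker of fast motor neurons, had 12.16, 12.81 and 12.56 in SMA LMC, against 10.23, 10.51 and 10.83 in SMA MMC. It was higher by 1.99 (SE 0.30, adjusted p = 0.000282), while another probe of the same gene, above background on 4 of the 6 arrays, gave -0.41. Calcb, which encodes a calcitonin gene-related peptide, had 10.24, 9.97 and 10.10 in SMA LMC, against 8.08, 8.18 and 9.20 in SMA MMC, and its difference was 1.62 (SE 0.32, adjusted p = 0.00354). The neurofilament light chain Nefl and the growth-associated protein Stmn2 were higher by 0.75 (adjusted p = 0.0222) and 0.47 (adjusted p = 0.0116). The acetylcholine synthesis enzyme Chat was at 7.85, 8.40 and 7.73 in SMA LMC, against 7.02, 7.33 and 7.31 in SMA MMC, a difference of 0.77 (adjusted p = 0.275) that did not pass, although the SMA LMC arrays were all above the SMA MMC arrays. The choline transporter Slc5a7 differed by 0.64 (adjusted p = 0.32) and the pan-motor-neuron factor Mnx1 by -0.63 (adjusted p = 0.265), and neither passed. The vesicular acetylcholine transporter Slc18a3 was not above background on SMA LMC replicate 2, and its difference of -1.18 (adjusted p = 0.157) passed once SMA LMC replicate 3 was left out (adjusted p = 0.0343), but was -0.19 (adjusted p = 0.833) without SMA LMC replicate 2. The call of Nefl was lost when SMA LMC replicate 1 or 3 or SMA MMC replicate 1 or 3 was left out, with an adjusted p of up to 0.0758.

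Of 19 genes linked to LMC identity, 5 were higher in SMA LMC, where 5.35% of all genes tested were, and 0 lower, with a median of 0.74. With the spread of 12 arrays 3 of them were higher and with that of the 6 SMA arrays 0, where Isl1 had an adjusted p of 0.0782 and Aldh1a2 of 0.095. In WT, 3 were higher and 1 lower, with a median of 0.64. Aldh1a2, the enzyme that makes retinoic acid in LMC neurons, had 8.55, 7.23 and 9.65 in SMA LMC, against 5.96, 5.10 and 5.35 in SMA MMC. It was above background on 3 of 3 SMA LMC arrays and 1 of 3 SMA MMC arrays, and it was higher by 3.01 (SE 0.48, adjusted p = 0.000594). Efna5, an ephrin that guides limb motor axons, had 9.38, 8.43 and 9.18 in SMA LMC, against 4.88, 6.62 and 6.33 in SMA MMC, a difference of 3.05 (SE 0.59, adjusted p = 0.00299). Another Efna5 probe gave 1.46. The GDNF receptor Gfra1 was higher by 2.25 (adjusted p = 0.00548). Foxp1 had 7.75, 5.97 and 8.07 in SMA LMC, against 5.56, 6.32 and 4.89 in SMA MMC. The array of SMA LMC replicate 2 was below 1 SMA MMC array, so the groups overlapped, and the difference of 1.67 (SE 0.52, adjusted p = 0.0467) was lost when any of 4 other arrays was left out, with an adjusted p of 0.102 to 0.163. Foxp1 also missed the threshold with the spread of 12 arrays (adjusted p = 0.143) and of the 6 SMA arrays (adjusted p = 0.237). Lhx1, a factor of lateral LMC neurons, was above background on the 3 SMA LMC arrays and on no SMA MMC array and differed by 0.92 (adjusted p = 0.145), which did not pass. Of 9 genes linked to MMC identity, 1 was higher, Isl1, which is on both lists, and 1 was lower. The lower gene was Lhx3, with 5.22, 5.69 and 5.02 in SMA LMC, against 6.76, 6.09 and 6.06 in SMA MMC. On this probe it was not above background on any SMA LMC array, and the probe was lower in SMA LMC by a factor of at least 1.79 (adjusted p = 0.0235). Such a bound, an "at least" fold, sets the mean of the brighter group against the lowest level that counts as above background on the arrays of the dimmer group. Bounds were worked out for the main processing only and not for the alternatives. The bound holds for the probe and not for the gene, since further Lhx3 probes were above background on 3 and 4 of the 6 SMA arrays and gave -1.51 and -1.22. The call was lost without SMA LMC replicate 3 (adjusted p = 0.065) or SMA MMC replicate 1 (adjusted p = 0.11). It was also lost with the spread of 12 arrays (adjusted p = 0.137) and of the 6 SMA arrays (adjusted p = 0.229). Of the MMC identity genes, 1 was higher and 0 lower with the spread of 12 arrays, and 0 passed with that of the 6 SMA arrays.

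**Figure D2:**
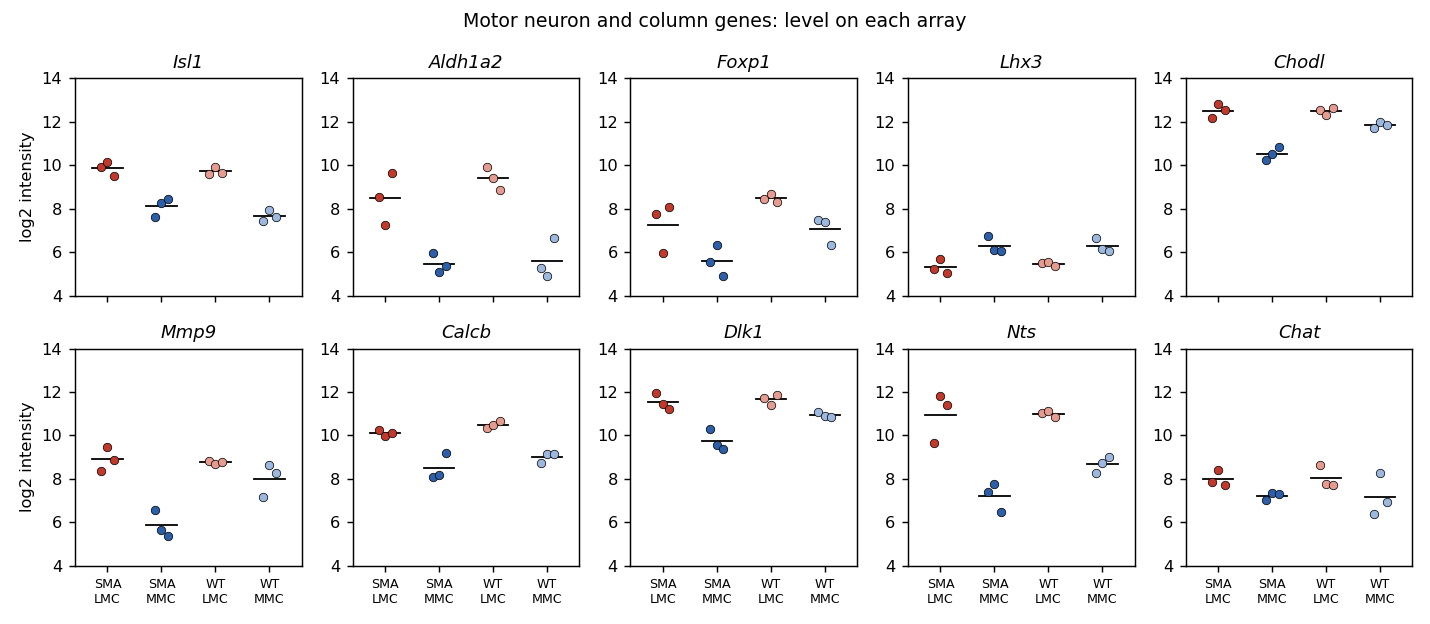
Each panel shows 1 gene, with the log2 intensity of the 3 arrays of SMA LMC, SMA MMC, WT LMC and WT MMC as points and the group mean as a line. Isl1, Aldh1a2, Chodl, Mmp9, Calcb and Nts are higher on every LMC array than on every MMC array of the same genotype. Chodl, Mmp9 and Dlk1 are lowest in SMA MMC.

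Among 20 genes that mark fast or slow motor neurons, 9 were higher in SMA LMC, where 5.35% of all genes tested were, and 0 were lower, with a median of 0.94. Of the 20, 16 lay above 0 and 4 below. The list mixes markers of both types, and the members described are those that passed, so a shift between fast and slow types was not tested. With the spread of 12 arrays 4 were higher and 1 lower, and with that of the 6 SMA arrays 1 was higher, Chodl. In WT 1 was higher and 1 lower, with a median of 0.73. Without SMA LMC replicate 2, 6 were higher and the median was 0.75. Mmp9, a matrix protease of fast-fatigable motor neurons, had 8.37, 9.47 and 8.85 in SMA LMC, against 6.56, 5.66 and 5.36 in SMA MMC. It was above background on 3 of 3 SMA LMC arrays and 2 of 3 SMA MMC arrays, and the difference was 3.04 (SE 0.41, adjusted p = 8.84e-05). Dlk1, a Notch-related ligand of fast motor neurons, had 11.97, 11.46 and 11.23 in SMA LMC, against 10.29, 9.58 and 9.36 in SMA MMC and was higher by 1.81 (SE 0.28, adjusted p = 0.000527). The potassium channel Kcna1 was higher by 2.44 (adjusted p = 0.00592), the kinase Stk32a by 1.85 (adjusted p = 0.0215), the calmodulin-binding peptide Pcp4 by 0.96 (adjusted p = 0.0255) and the T-type calcium channel Cacna1g by 1.38 (adjusted p = 0.032). The other 3 that passed were Chodl, Calcb and Gfra1, described above. Chodl, Mmp9, Dlk1, Calcb, Gfra1 and Kcna1 passed with each of the 6 SMA arrays left out in turn. Stk32a, Pcp4 and Cacna1g did not, and all 3 missed the threshold without SMA LMC replicate 2 (adjusted p = 0.0603, 0.121 and 0.204, with Cacna1g at 0.89) or without SMA MMC replicate 3 (adjusted p = 0.116, 0.0856 and 0.0644, with Stk32a at 1.16), and Cacna1g also without SMA MMC replicate 1 (adjusted p = 0.119). In WT mice Mmp9 was at 8.83, 8.68 and 8.77 in WT LMC, against 7.17, 8.62 and 8.26 in WT MMC, a difference of 0.74 (adjusted p = 0.297), and Dlk1 differed by 0.73 (adjusted p = 0.139). The SMA minus WT difference was 2.30 (adjusted p = 0.279) for Mmp9, 1.35 (adjusted p = 0.313) for Chodl and 1.08 (adjusted p = 0.405) for Dlk1, so a genotype effect on these column differences was not detected.

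Some ion channel, receptor and structural genes of neurons were higher in SMA LMC, where 5.35% of all genes tested were. Of 21 potassium channel genes 3 were higher and 0 lower (median 0.44). Kcnab1, a beta subunit of Kv1 channels, had 9.81, 11.05 and 10.30 in SMA LMC, against 8.20, 7.75 and 8.15 in SMA MMC and was higher by 2.35 (SE 0.45, adjusted p = 0.00238), and its partner Kcnab2 was higher by 1.20 (adjusted p = 0.0123). The other that passed was Kcna1, given above. Of 16 sodium and calcium channel genes 2 were higher and 1 was lower. Cacna1g, given above, was one that was higher. The other was the sodium channel beta subunit Scn4b, which had 8.67, 9.76 and 9.50 in SMA LMC, against 6.69, 7.67 and 7.55 in SMA MMC and differed by 2.01 (SE 0.36, adjusted p = 0.00163), while another probe gave -0.13. Cacna1c, an L-type calcium channel, was not above background in SMA LMC and was lower by a factor of at least 1.69 (adjusted p = 0.0215). Of 21 neurotransmitter receptor genes 4 were higher and 0 lower (median 0.38). These were the glycine receptor subunit Glra2, which was higher by 1.44 (adjusted p = 0.00645), the nicotinic subunit Chrna4 by 0.77 (adjusted p = 0.0105), the inhibitory scaffold gephyrin, Gphn, by 1.37 (adjusted p = 0.0196) and the AMPA receptor subunit Gria1 by 1.76 (adjusted p = 0.0258). Further Gria1 probes gave smaller differences of 0.04, 0.52 and 0.70. Without SMA LMC replicate 2 Glra2 was the 1 receptor gene that passed. Of 20 synaptic vesicle genes 1 was higher, near the share of all genes. This was Vamp1, the vesicle fusion protein of motor terminals, higher by 1.22 (adjusted p = 0.01), and the call was lost without that array (0.80, adjusted p = 0.0659). Leaving out SMA MMC replicates also ended the calls of Gphn (adjusted p up to 0.0649), Gria1 (1.17, adjusted p = 0.141 without SMA MMC replicate 1) and Cacna1c (adjusted p up to 0.0644, against 0.0691 without SMA LMC replicate 2), and Kcnab2 missed the threshold at 0.0881 without SMA LMC replicate 2.

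When the spread came from 12 arrays, 1 potassium channel, 1 sodium or calcium channel and 2 receptor genes were higher, and 1, 0 and 0 when it came from the 6 SMA arrays.

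In the list of 23 neurofilament, microtubule and transport genes, 4 were higher, where 5.35% of all genes tested were, and 0 lower (median 0.17). With the spread of 12 and of 6 arrays 1 and 0 were higher. They were Nefl, Stmn2 and the tubulins Tuba4a and Tubb2a, with differences of 0.74 (adjusted p = 0.0349) and 0.38 (adjusted p = 0.0388). Both tubulin calls were lost without SMA LMC replicate 2 (adjusted p = 0.11 and 0.204), that of Tuba4a also without 3 other arrays and that of Tubb2a without 2. Of 23 cadherins and protocadherins, 2 were higher, not far from the 5.35% of all genes tested. Cdh9 was at 8.75, 9.52 and 9.10 in SMA LMC, against 5.14, 4.89 and 7.83 in SMA MMC, above background on 3 of 3 SMA LMC arrays and 1 of 3 SMA MMC arrays, and was higher by 3.17 (SE 0.52, adjusted p = 0.000663), and Pcdh10 was higher by 0.81 (adjusted p = 0.00414). Of 22 axon guidance genes 3 were higher, beside the same 5.35%, and 2 and 0 with the spread of 12 and of 6 arrays. They were Efna5, the secreted repellent Slit2 at 1.83 (adjusted p = 0.015) and the semaphorin Sema6d at 0.33 (adjusted p = 0.0463). A pair of further Slit2 probes gave -0.86 and -0.19, Slit2 missed the threshold without SMA LMC replicate 2 (adjusted p = 0.11) or SMA MMC replicate 1 (adjusted p = 0.0688), and Sema6d missed it with any 1 of the 6 arrays left out (adjusted p = 0.0554 to 0.135). Ngfr, the low-affinity neurotrophin receptor of immature motor neurons, was higher by 1.10 (adjusted p = 0.0238), and the growth factor Igf2 was lower, at -2.06 (adjusted p = 0.0265). The call of Ngfr was lost without SMA LMC replicate 2, SMA MMC replicate 1 or SMA MMC replicate 2 (adjusted p = 0.111, 0.0821 and 0.064), and that of Igf2 without any of 4 arrays (adjusted p up to 0.112).

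The largest rise among genes above background in both columns was Nts, the precursor of the peptide neurotensin. Its levels were 9.66, 11.81 and 11.38 in SMA LMC, against 7.40, 7.77 and 6.49 in SMA MMC, and the difference was 3.73 (SE 0.56, adjusted p = 0.000289). Another probe gave 2.88, and in WT the levels were 11.03, 11.15 and 10.84 in WT LMC, against 8.26, 8.73 and 9.01 in WT MMC, a difference of 2.34 (adjusted p = 0.0203). Next came Stc1, the secreted glycoprotein stanniocalcin, with 8.64, 9.49 and 9.44 in SMA LMC, against 7.41, 5.69 and 4.77 in SMA MMC and a difference of 3.23 (SE 0.56, adjusted p = 0.00127). Spry3, of the Sprouty family of growth factor signalling inhibitors, was higher by 3.11 (adjusted p = 0.00177), and the diacylglycerol kinase Dgkk by 3.06 (adjusted p = 0.000594). The others of the 12 largest were Efna5, Mmp9, Dbpht2 (2.90), the LIM-only factor Lmo1 (2.84), Rapgefl1 (2.83), the hyaluronan link protein Hapln1 (2.78), Tmem177 (2.77) and the DnaJ family member Dnajc18 (2.71). Another Rapgefl1 probe gave -0.03. Tmem177 missed the threshold without SMA LMC replicate 2 (adjusted p = 0.112) or SMA MMC replicate 3 (adjusted p = 0.0849), and Dnajc18 without SMA LMC replicate 2 (adjusted p = 0.0512).

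Among genes whose probe was above background on all 3 SMA LMC arrays and on no SMA MMC array, the largest bounds belonged to Layn, a hyaluronan receptor, at least 9.84-fold higher (adjusted p = 0.000256), and to E2f1, a cell cycle transcription factor, at least 7.08-fold (adjusted p = 0.0111). Layn had 8.97, 7.48 and 9.46 in SMA LMC, against 4.65, 4.54 and 4.53 in SMA MMC, and in WT it was above background on every array, with 9.41, 8.98 and 9.14 in WT LMC, against 8.61, 7.81 and 5.79 in WT MMC. The collagen Col8a1 at 6.3-fold and Sostdc1, a secreted antagonist of BMP and Wnt signals, at 6.19-fold, were further lower bounds. Over the alternatives the fitted difference (log2) ranged from 1.36 to 4.64 for Layn, 0.997 to 3.90 for E2f1 and 0.922 to 3.40 for Col8a1. The folds thus hold for the main processing and are not minimum folds over all of them. For the enteropeptidase gene Tmprss15 and the RNA polymerase I subunit Polr1a the bounds of 6.94-fold and 6.58-fold hold for 1 probe and not for the gene. Another Tmprss15 probe was above background on 4 of the 6 arrays and gave 1.82. The 3 further Polr1a probes, above background on 4, 6 and 6 arrays, gave -0.65, 1.07 and 0.16, so its probes disagree. The call of E2f1 was lost without SMA LMC replicate 2 (adjusted p = 0.0528).

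**Figure D3:**
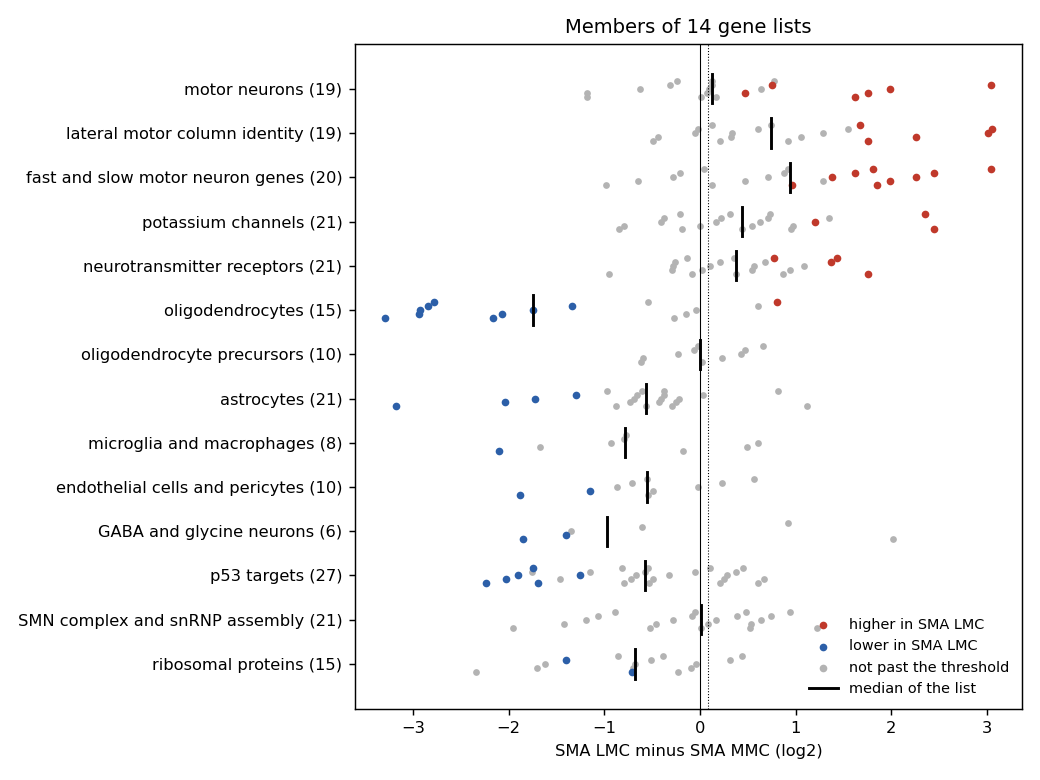
Each point is 1 gene of a list, placed by its SMA LMC minus SMA MMC difference (log2), with the number of members tested in parentheses and the list median as a black bar. Red points were higher in SMA LMC, blue points lower and grey points did not pass, and the dotted line is the median of 0.08 over all genes tested. The oligodendrocyte list has its median at -1.75 and 9 of 15 members lower.

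Mature oligodendrocyte genes were lower in SMA LMC than in SMA MMC. Of 15 oligodendrocyte markers tested, 9 were lower and 1 was higher, where 3.33% of all genes tested were lower, and the median was -1.75. With the spread of 12 arrays 5 were lower and with that of the 6 SMA arrays 4, and the median was -0.79 on the authors' deposited normalized values. Without the detection filter the median was -0.54 with 8 lower. With detection on all arrays of both groups it was -1.33 with 6 lower. The size of the median thus depended on the filter and the normalization. In WT 8 were lower and 0 higher, with a median of -1.19. The summed intensity of the markers was 6001 to 6447 on the SMA LMC arrays and 12400 to 18320 on the SMA MMC arrays, which do not overlap. In bulk samples such as these, fewer cells of a type and less RNA per cell cannot be told apart. Several of the members that passed encode parts of the myelin sheath. The sequences just before the transcription starts of 4 of them are shown here because these genes are among those that were lower. They are the 250 bases before the RefSeq start (build GRCm38.p6), 5′ to 3′ on the strand of the gene (1 of the several starts listed for Mag), for Mobp at chr9:120149492-120149741 (+ strand), Mag at chr7:30914864-30915113 (- strand), Cnp at chr11:100574689-100574938 (+ strand) and Cldn11 at chr3:31149670-31149919 (+ strand). Capitals mark matches to ACAAAG or ACAATG or their reverse complements, the letters bound by Sox factors such as Sox10, the regulator of the oligodendrocyte lineage.
Mobp: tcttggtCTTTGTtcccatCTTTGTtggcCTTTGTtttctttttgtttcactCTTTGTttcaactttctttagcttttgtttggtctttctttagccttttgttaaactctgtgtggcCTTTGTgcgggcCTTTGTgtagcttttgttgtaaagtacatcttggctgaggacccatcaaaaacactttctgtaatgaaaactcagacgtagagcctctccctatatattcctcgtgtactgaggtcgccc
Mag: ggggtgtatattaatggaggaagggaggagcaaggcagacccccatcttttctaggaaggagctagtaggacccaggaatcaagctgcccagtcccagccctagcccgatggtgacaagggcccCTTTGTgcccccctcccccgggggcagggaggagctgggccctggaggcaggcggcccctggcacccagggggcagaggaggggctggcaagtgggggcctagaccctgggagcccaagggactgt
Cnp: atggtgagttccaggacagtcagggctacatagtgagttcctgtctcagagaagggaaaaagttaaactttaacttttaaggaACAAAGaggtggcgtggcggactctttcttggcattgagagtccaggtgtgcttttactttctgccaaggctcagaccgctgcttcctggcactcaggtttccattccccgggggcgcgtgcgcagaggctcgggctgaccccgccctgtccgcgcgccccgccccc
Cldn11: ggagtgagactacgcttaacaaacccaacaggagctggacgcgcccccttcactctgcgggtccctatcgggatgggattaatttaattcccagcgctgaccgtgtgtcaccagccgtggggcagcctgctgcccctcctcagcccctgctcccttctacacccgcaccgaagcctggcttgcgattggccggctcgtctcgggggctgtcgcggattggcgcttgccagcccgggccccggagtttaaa

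Mobp had 6 such matches, Mag and Cnp 1 each and Cldn11 0. The promoter of Mal, another lower myelin gene, is not shown and had 0. The letters occur in 25.5% of all 27025 promoters of this length and in 16.6% of the 7222 promoters of genes tested. They occur in 17.9% of the 235 promoters of genes lower in SMA LMC and in 16.1% of the 372 promoters of genes higher in SMA LMC, so the lower genes as a whole were near the share of all genes tested. A match is a description of the letters and not evidence of binding.

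Mag, myelin-associated glycoprotein, had 7.92, 8.65 and 7.01 in SMA LMC, against 11.22, 11.17 and 11.06 in SMA MMC, and its difference was -3.29 (SE 0.53, adjusted p = 0.000594). Mbp, myelin basic protein, had 8.28, 9.04 and 7.44 in SMA LMC, against 11.42, 11.36 and 10.75 in SMA MMC and differed by -2.93 (SE 0.31, adjusted p = 6.41e-06). Another Mbp probe gave -2.27 and one more, above background on all 6 arrays, gave 0.16. Cldn11, which forms the tight junctions of myelin, had 8.75, 9.35 and 7.55 in SMA LMC, against 11.29, 11.63 and 11.05 in SMA MMC, a difference of -2.77 (SE 0.45, adjusted p = 0.00061). In all 3 genes every SMA LMC array was below every SMA MMC array, and all 3 passed in every alternative that gave a value, including the fit on the 6 SMA arrays alone. Cnp, an enzyme of non-compact myelin, was lower, at -2.16 (adjusted p = 0.0019), as were Bcas1, a gene of newly forming oligodendrocytes, at -1.33 (adjusted p = 0.00548) and Enpp6, another such gene, at -2.06 (adjusted p = 0.0111).

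Mal and Mobp varied more. Mal, a membrane protein of compact myelin, had 5.42, 4.57 and 8.47 in SMA LMC, against 9.89, 10.25 and 7.11 in SMA MMC, and Mobp had 7.46, 8.63 and 4.54 in SMA LMC, against 11.15, 10.43 and 7.55 in SMA MMC. The SMA groups overlapped for both, with differences of -2.93 (adjusted p = 0.0247) and -2.84 (adjusted p = 0.0273). Mal missed the threshold without SMA LMC replicate 1 or 2 or SMA MMC replicate 1 or 2 (adjusted p up to 0.155), and Mobp without SMA LMC replicate 3 or SMA MMC replicate 1 or 2 (adjusted p up to 0.132, with a difference of -1.67 without SMA LMC replicate 3). The galactolipid synthesis enzyme Ugt8a was lower, at -1.75 (adjusted p = 0.0218), and its call was lost without SMA LMC replicate 2 or SMA MMC replicate 2 (adjusted p up to 0.142). Without SMA LMC replicate 2, 7 of 17 markers were lower and the median was -1.18. The marker that was higher was Qdpr, a pteridine reductase that neurons also express, at 0.81 (adjusted p = 0.0301), a call lost without any 1 of 5 of the arrays (adjusted p up to 0.0781).

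The lineage factor Sox10 and the markers of oligodendrocyte precursors did not pass. Sox10 had 7.15, 7.84 and 6.41 in SMA LMC, against 7.52, 7.25 and 6.78 in SMA MMC, a difference of -0.05 (adjusted p = 0.955). Of 10 precursor markers tested, 0 passed in either direction in the limma fit and 0 had an unadjusted p under 0.05. The median was 0.00, and Pdgfra, the growth factor receptor of precursors, had 10.11, 10.18 and 10.12 in SMA LMC, against 9.82, 9.61 and 9.68 in SMA MMC, a difference of 0.43 (adjusted p = 0.309). The 3 Pdgfra values of SMA LMC lay above those of SMA MMC.

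**Figure D4:**
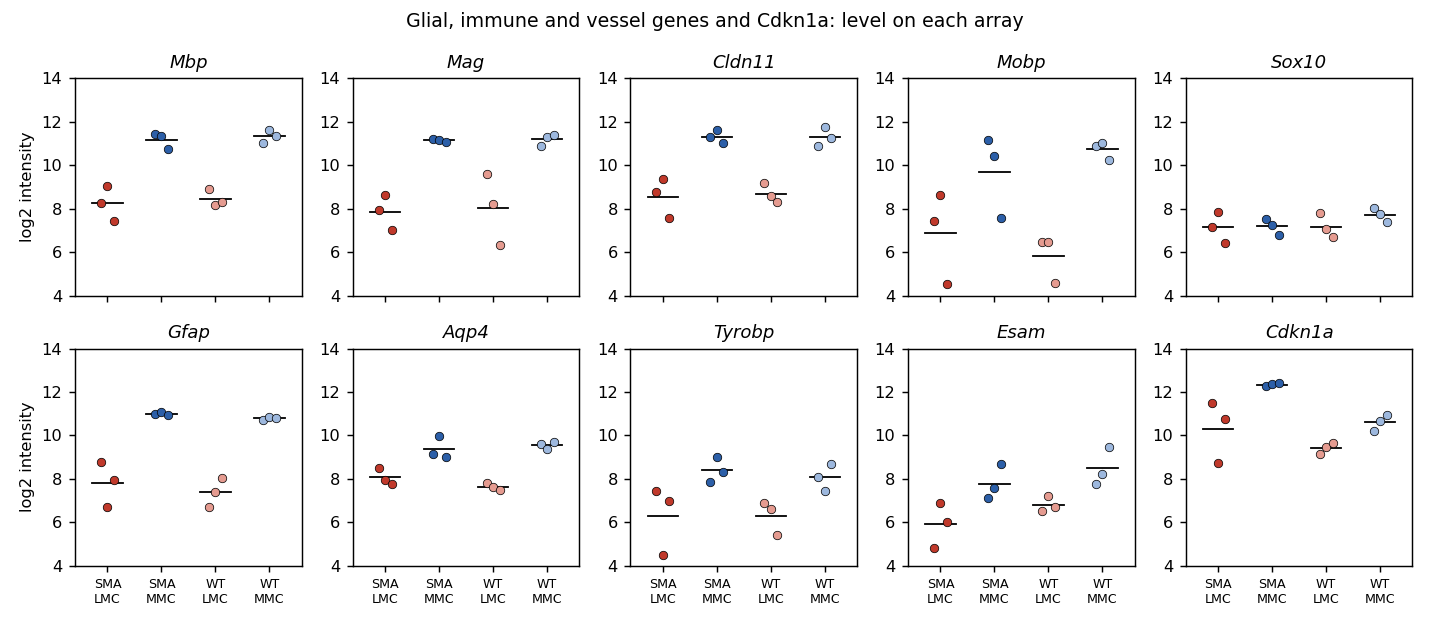
Each panel shows 1 gene, with the log2 intensity of the 3 arrays of SMA LMC, SMA MMC, WT LMC and WT MMC as points and the group mean as a line. Mbp, Mag, Cldn11, Gfap and Aqp4 are lower on every LMC array than on every MMC array in both genotypes, Sox10 overlaps, and SMA LMC replicate 2 is the lowest SMA LMC point for Gfap, Tyrobp and Cdkn1a.

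Astrocyte genes were partly lower. Of 21 markers tested 4 were lower, where 3.33% of all genes tested were, and 0 higher, with a median of -0.56. Of these, 2 passed with the spread of 12 arrays and 1, Gfap, with that of the 6 SMA arrays. The summed intensity was 17490 to 19570 in SMA LMC and 25030 to 29840 in SMA MMC. Gfap, the intermediate filament of astrocytes, had 8.79, 6.71 and 7.97 in SMA LMC, against 10.97, 11.07 and 10.95 in SMA MMC, a difference of -3.17 (SE 0.43, adjusted p = 0.000109), and it passed in every alternative. A second Gfap probe gave -1.23. The water channel Aqp4 had 8.52, 7.97 and 7.77 in SMA LMC, against 9.14, 9.97 and 9.02 in SMA MMC, a difference of -1.29 (adjusted p = 0.0238) that was lost without SMA LMC replicate 2 or 3 or SMA MMC replicate 2 (adjusted p up to 0.107). Agt, angiotensinogen, was not above background in SMA LMC and was lower by a factor of at least 1.8 (adjusted p = 0.00123). Apoe, the lipid carrier, had 8.86, 5.31 and 8.88 in SMA LMC, against 9.76, 9.71 and 9.67 in SMA MMC. Here SMA LMC replicate 2 was not above background. The difference of -2.03 (adjusted p = 0.0217) was -0.85 without that array (adjusted p = 0.016) and was lost without SMA MMC replicate 1 (adjusted p = 0.0576). Sox9, an astrocyte and progenitor factor, differed by -0.98 (adjusted p = 0.0511), just short of the threshold, and passed without SMA LMC replicate 3 (adjusted p = 0.0465) or SMA MMC replicate 3 (adjusted p = 0.0379).

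Markers of other cells were mostly dim. Beside the counts below, 3.33% of all genes tested were lower. With the spread of 12 or of 6 arrays, 0 microglia and 0 endothelial markers passed. Of the ependymal markers 2 were lower with the spread of 12 arrays and 1 with that of 6. Of 8 microglia and macrophage markers 1 was lower, the signalling adaptor Tyrobp, with 7.42, 4.50 and 6.98 in SMA LMC, against 7.86, 9.01 and 8.32 in SMA MMC and a difference of -2.10 (adjusted p = 0.0232). Its call was lost without SMA LMC replicate 2 (-1.20, adjusted p = 0.157) or SMA MMC replicate 2 (adjusted p = 0.0833). Aif1 differed by 0.60 (adjusted p = 0.64) and had overlapping groups, and the complement subunit C1qb differed by -1.68 (adjusted p = 0.0676), which passed without SMA LMC replicate 1 (adjusted p = 0.0496). Of 10 endothelial and pericyte markers 2 were lower, the junction protein Esam at -1.88 (adjusted p = 0.0255) and Ly6c1 at -1.15 (adjusted p = 0.0481), while the tight junction gene Cldn5 differed by -0.86 (adjusted p = 0.128) and did not pass. Esam missed the threshold without SMA LMC replicate 1 or SMA MMC replicate 3 (adjusted p up to 0.116), and Ly6c1 without any 1 of 5 arrays (adjusted p up to 0.208). Of 4 ependymal markers 2 were lower. One was Fam183b, with 4.42, 4.59 and 4.45 in SMA LMC, against 8.93, 9.55 and 9.38 in SMA MMC, lower by a factor of at least 14.2 (adjusted p = 0.000364). This was the largest bound in that direction, and Fam183b passed with each array left out. Its fitted difference (log2) ranged from -4.98 to -1.72 over the alternatives, so the bound holds for the main processing only. In WT it was above background on 1 of 3 MMC arrays, with 4.57, 4.53 and 4.69 in WT LMC, against 4.77, 7.22 and 4.53 in WT MMC. The other was the imprinted gene Nnat, at -1.87 (adjusted p = 0.01), for which another probe gave 0.30 and which missed the threshold without SMA LMC replicate 2 (adjusted p = 0.0654). Of 4 Schwann cell markers 0 passed in the limma fit, and 0 had an unadjusted p under 0.05.

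Of 6 genes of GABA and glycine neurons, 2 were lower, where 3.33% of all genes tested were. These were the GABA synthesis enzymes Gad1 and Gad2. With the spread of 12 arrays they missed the threshold (adjusted p = 0.13 and 0.0814) and 1 other member was lower, and with that of the 6 SMA arrays 0 passed. Gad2 had 9.58, 6.89 and 9.04 in SMA LMC, against 10.54, 10.46 and 10.07 in SMA MMC and Gad1 7.26, 7.78 and 7.09 in SMA LMC, against 8.25, 9.19 and 8.89 in SMA MMC. The groups did not overlap, and the differences were -1.85 (adjusted p = 0.024) and -1.40 (adjusted p = 0.0495). Neither passed without SMA LMC replicate 2 (adjusted p = 0.161 and 0.0719, with Gad2 at -1.04) or SMA MMC replicate 2 (adjusted p = 0.0566 and 0.146), Gad2 also missed it without SMA MMC replicate 1 (adjusted p = 0.0718), and Gad1 without any 1 of 5 arrays. The vesicular transporter Slc32a1 had 9.91, 8.53 and 9.48 in SMA LMC, against 10.77, 10.81 and 10.36 in SMA MMC, a difference of -1.34 (adjusted p = 0.116). The secretory granule protein Scg2 was lower, at -1.32 (adjusted p = 0.0437), a call lost without any of 4 arrays (-0.63, adjusted p = 0.29 without SMA LMC replicate 2).

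Of 17 collagen and matrix genes, 3 were higher and 1 was lower, where 5.35% and 3.33% of all genes tested were. With the spread of 12 arrays 2 were higher and 0 lower, and with that of the 6 SMA arrays 1 and 0. Hapln1, Col8a1 and Hapln4, another hyaluronan link protein, were higher, Hapln4 by 1.99 (adjusted p = 0.0229), and the proteoglycan neurocan, Ncan, was lower at -0.82 (adjusted p = 0.0186). Hapln4 and Ncan missed the threshold without SMA LMC replicate 2 (adjusted p = 0.11 and 0.106, with Ncan at -0.49), and Hapln4 also without SMA MMC replicate 2 (adjusted p = 0.103) or 3 (adjusted p = 0.0647). The small matrix proteoglycan biglycan, Bgn, was lower, with 7.60, 8.36 and 7.55 in SMA LMC, against 10.71, 9.90 and 10.58 in SMA MMC and a difference of -2.56 (SE 0.26, adjusted p = 5.44e-06). It was among the 12 largest falls with above-background signal in both columns. That group was led by Padi1, which converts arginine to citrulline in proteins, with 5.36, 6.48 and 4.97 in SMA LMC, against 9.62, 10.29 and 10.15 in SMA MMC and a difference of -4.42 (SE 0.43, adjusted p = 5.44e-06). In WT Padi1 had 4.59, 4.87 and 4.58 in WT LMC, against 5.16, 6.90 and 5.57 in WT MMC, below the SMA MMC levels in both columns, but the SMA minus WT difference of -3.22 (adjusted p = 0.0701) did not pass. The homeobox factor Mkx was lower, at -2.75 (adjusted p = 0.00123), and so were the homeobox factor Barx2 at -2.84 (adjusted p = 0.000321) and the homeodomain-only protein Hopx at -2.76 (adjusted p = 0.00213). Another Hopx probe, above background on all 6 SMA arrays, gave -0.46. The potassium channel accessory subunit Kcne1l was at -2.43 (adjusted p = 8.64e-05), the respiratory chain subunit Uqcrq at -3.18 (adjusted p = 0.0181) and the pyruvate dehydrogenase kinase Pdk4 at -2.37 (adjusted p = 0.0412). Uqcrq missed the threshold without SMA LMC replicate 2 (adjusted p = 0.077) or SMA MMC replicate 1 (adjusted p = 0.0576), and Pdk4 without any of 4 arrays (adjusted p up to 0.132). Crip2, a cysteine-rich LIM protein, had 8.36, 8.68 and 7.83 in SMA LMC, against 10.51, 10.54 and 10.16 in SMA MMC, a difference of -2.11 (SE 0.24, adjusted p = 1.54e-05) that passed in every alternative.

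Further genes above background on all 3 SMA MMC arrays and on no SMA LMC array were Samd9l, which is induced by interferon, at least 5.18-fold lower in SMA LMC, the transcription elongation factor Tcea3 at 4.89-fold, the peptide gene Nmu at 3.54-fold, A730049H05Rik at 3.17-fold and the endothelial tetraspan protein Tm4sf1 at 2.75-fold, all lower bounds. Tcea3 had 4.45, 5.37 and 4.70 in SMA LMC, against 8.48, 6.58 and 8.19 in SMA MMC and was not above background on any WT array of either column. The call of Tm4sf1 was lost without any of 4 arrays (adjusted p up to 0.115). Gbp5, an interferon-induced GTPase, was lower, at -1.98 (adjusted p = 0.0165), and was the 1 of 11 complement, MHC class I and interferon genes that passed, a call lost without SMA MMC replicate 1 (adjusted p = 0.0786). Of these 11 genes 10 lay below 0, and their median was -0.51, beside -0.66 in WT. Of all genes tested, 8.67% passed.

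Targets of p53 were lower in SMA LMC where they passed. Of 27 tested, 6 were lower, where 3.33% of all genes tested were, and 0 higher, with a median of -0.57. One, Dcxr, was lower with the spread of 12 arrays and another, Gtse1, with that of the 6 SMA arrays, and Cdkn1a missed the threshold in both (adjusted p = 0.0509 and 0.151). In WT 1 was lower and 0 higher and the median was 0.08. Cdkn1a, the cell cycle inhibitor p21, had 11.50, 8.72 and 10.74 in SMA LMC, against 12.27, 12.35 and 12.41 in SMA MMC, and the groups did not overlap. The difference was -2.03 (SE 0.40, adjusted p = 0.00358), further probes gave -2.72 and -2.36, and the WT levels were 9.16, 9.45 and 9.63 in WT LMC, against 10.22, 10.66 and 10.94 in WT MMC, a difference of -1.20 (adjusted p = 0.0921). Gtse1, a G2 phase regulator of p53, had 8.32, 8.12 and 8.22 in SMA LMC, against 10.20, 10.13 and 10.04 in SMA MMC and a difference of -1.90 (SE 0.48, adjusted p = 0.019), and in WT it differed by -0.14 (adjusted p = 0.898). Further Gtse1 probes gave -1.35 and -0.51 in SMA. The stress-induced sestrins Sesn1 and Sesn2 were lower, at -1.26 (adjusted p = 0.0255) and -2.23 (adjusted p = 0.027), as were the carbonyl reductase Dcxr at -1.74 (adjusted p = 0.00213) and Ei24 at -1.70 (adjusted p = 0.0375), and another Sesn2 probe gave 0.17. The SMA minus WT difference was -0.83 (adjusted p = 0.644) for Cdkn1a and -1.76 (adjusted p = 0.439) for Gtse1, and none of the 6 passed that test. Without SMA LMC replicate 2, 3 of 29 were lower and the median was -0.41. Cdkn1a and Dcxr passed with each array left out, although the difference of Cdkn1a was -1.23 without SMA LMC replicate 2, and that of Ei24 was -0.59. Gtse1, Sesn1, Sesn2 and Ei24 all missed the threshold without SMA MMC replicate 1 (adjusted p = 0.0527, 0.0666, 0.0916 and 0.0798), and each of them without at least 1 other array.

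Among Hox genes 1 of 18 passed, where 8.67% of all genes tested did, so Hox genes as a group did not stand out. Hoxd9 had 9.66, 9.57 and 10.24 in SMA LMC, against 10.57, 10.61 and 11.03 in SMA MMC, a difference of -0.91 (adjusted p = 0.0484) that was lost without any 1 of 5 arrays (adjusted p up to 0.176), and another probe gave -2.10. Hoxc9, which marks thoracic levels, differed by -1.10 (adjusted p = 0.0863) and passed without SMA LMC replicate 2 (adjusted p = 0.0483). The lumbar genes Hoxa10 and Hoxa11 had differences of 1.04 (adjusted p = 0.0901) and 0.92 (adjusted p = 0.0673), with no overlap between the columns in either. The list of lumbar and sacral Hox genes they belong to had 5 members tested, of which 0 passed in the main fit, 3 were below 0 and 2 above, and its median was -0.19. With the spread of 12 arrays Hoxa11 passed (adjusted p = 0.0137) and Hoxd9 did not (adjusted p = 0.0845). With that of the 6 SMA arrays neither passed (adjusted p = 0.092 and 0.143).

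No member passed in the limma fit among the 21 genes of the SMN complex and snRNP assembly (median 0.01), the 14 of cholesterol synthesis, the 31 of oxidative phosphorylation and the 12 of the mitotic cell cycle. At an unadjusted p under 0.05 these lists had 4, 2, 5 and 3 members, where 2252 of the 8902 genes tested had one. Of 15 ribosomal protein genes, 2 were lower, where 3.33% of all genes tested were, and 0 with the spread of 12 or of 6 arrays. They were Rps14 at -0.71 (adjusted p = 0.012) and Rps19 at -1.40 (adjusted p = 0.041), and the list median was -0.68. SMA LMC replicate 2 was the lowest array for both, as in Rps19, with 11.71, 9.05 and 11.71 in SMA LMC, against 12.37, 12.23 and 12.06 in SMA MMC. Without it Rps14 passed at -0.38, Rps19 did not at -0.51 (adjusted p = 0.209) and the list median was -0.15. The call of Rps19 was also lost without any 1 of the SMA MMC arrays (adjusted p up to 0.108). The histone gene H2ac20 was the 1 of 18 that passed, at -0.92 (adjusted p = 0.0236), and it missed the threshold without SMA LMC replicate 2 (adjusted p = 0.123) or SMA MMC replicate 1 (adjusted p = 0.0839). Of the 18 histone genes 17 lay below 0, where 55% of all genes tested lay above 0. The histone median was -0.91, against 0.46 in WT, and -0.48 without SMA LMC replicate 2. The immediate early gene Ier3 was the 1 of 8 that passed, higher by 2.04 (adjusted p = 0.025), a call lost without any of 4 arrays (adjusted p up to 0.121). The histone and immediate early counts stand beside the 8.67% of all genes tested that passed.

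The same contrast was made in WT mice. The SMA and WT contrasts share no arrays, but they share the same 2 chips. Of 9186 genes tested in WT, 332 passed (3.61%), 183 higher in WT LMC and 149 lower. Of the 688 genes called in SMA and tested in WT, 618 had the same sign in WT, 89.8%, against 65% of the 8391 genes tested in both. A total of 134 genes was called in both genotypes, 19.5% of those SMA calls and 45.6% of the 294 WT calls, and all 134 had the same sign. Across the 8391 genes the 2 differences correlated with Pearson's r of 0.458 and Spearman's rho of 0.396, a description over genes, which are not independent.

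**Figure D5:**
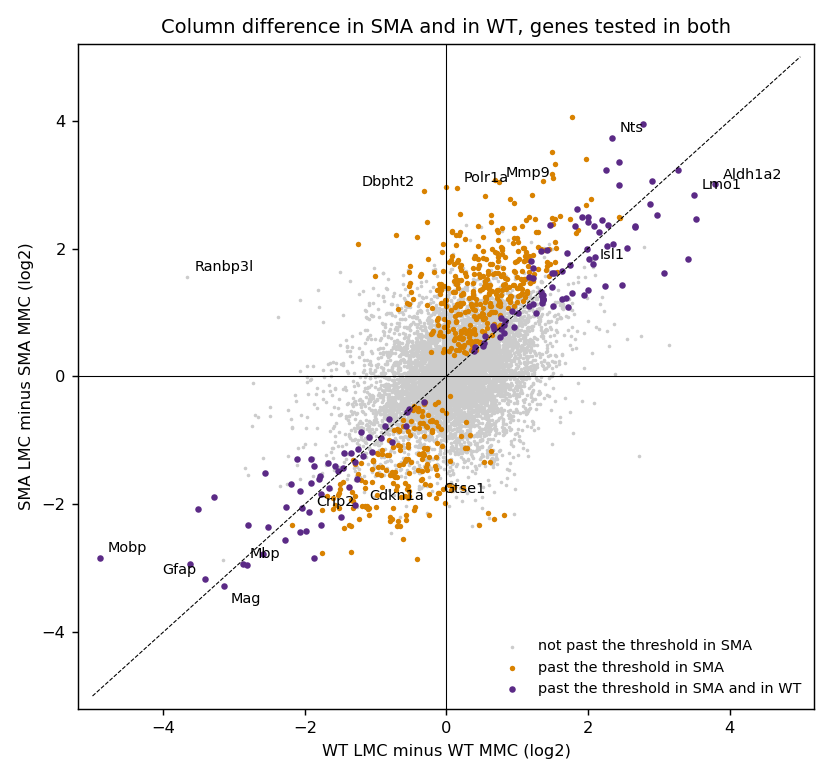
Each point is 1 of the 8391 genes tested in both genotypes, with WT LMC minus WT MMC (log2) on the horizontal axis and SMA LMC minus SMA MMC (log2) on the vertical axis, and the dashed line marks equal differences. The 134 purple genes passed in both and lie in the lower left and upper right, and Ranbp3l lies apart, at 1.56 in SMA and -3.67 in WT.

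The leading myelin and astrocyte genes were lower in WT LMC as well. Mbp was at 8.91, 8.18 and 8.30 in WT LMC, against 11.02, 11.65 and 11.37 in WT MMC, a difference of -2.88 (adjusted p = 3.11e-05) beside -2.93 in SMA. Mag differed by -3.15 in WT, Cldn11 by -2.59 and Gfap by -3.41, and the SMA minus WT differences were -0.05, -0.14, -0.19 and 0.24, none of which passed. Isl1 was higher by 2.07 (adjusted p = 0.000203) in WT LMC and Aldh1a2 by 3.80 (adjusted p = 8.1e-05). The test of the SMA minus WT difference ran over 9697 genes and called 2 (0.0206%), while 941 genes (9.7%) had an unadjusted p under 0.05. Ranbp3l had 6.03, 7.30 and 5.53 in SMA LMC, against 4.53, 4.89 and 4.75 in SMA MMC, and 4.47, 4.80 and 5.87 in WT LMC, against 8.06, 7.76 and 10.33 in WT MMC. It was above background on 0 of 3 SMA MMC arrays and on 1 of 3 WT LMC arrays, so its fitted differences depend on levels at background. These were 1.56 in SMA, where it did not pass (adjusted p = 0.0942) and the bound was at least 1.93-fold, -3.67 in WT and 5.23 (adjusted p = 0.0194) for SMA minus WT. The genotype call was lost without WT LMC replicate 1 (adjusted p = 0.0881) or 2 (adjusted p = 0.0539). Dennd3, a regulator of Rab proteins in vesicle traffic, had 4.85, 4.50 and 4.79 in SMA LMC, against 6.88, 6.08 and 7.46 in SMA MMC, and was not above background on any SMA LMC or WT motor column array. It was lower in SMA LMC by a factor of at least 2.54 (adjusted p = 5.47e-05). The fitted SMA minus WT difference of -2.13 (adjusted p = 0.0328) sets this against WT columns that are both at background, is no bound, and was lost without any 1 of the 3 SMA LMC arrays, of the 3 WT LMC arrays or without SMA MMC replicate 1 (adjusted p = 0.0532 to 0.129). By smallest p, the next genes were Polr1a (2.81) and the macrophage protease Mmp12 (2.89) above 0, and Tcea3 (-2.82) and Padi1 (-3.22) below 0, with adjusted p-values of 0.0652, 0.0701, 0.0706 and 0.0741 for Tcea3, Padi1, Polr1a and Mmp12 that did not pass. With 1 array left out the count of calls was 0 without WT LMC replicate 1 or 2 and up to 11 without WT MMC replicate 2.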

How the data were processed

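Gene expression was measured on 24 Illumina bead arrays, of which 6 are compared here. The deposited table holds the intensity of each probe on each array and its detection p-value, made with GenomeStudio per the submitters' processing notes, and negative intensities show that background had been subtracted by the authors. A second deposited table holds the authors' log2 normalized values, used as an alternative. How they were normalized is not given in the sources used.

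Intensities were background-corrected with normexp (limma 3.58.1, R 4.3.3; control statistics inferred from detection p-values, offset 16), quantile-normalized over the 24 arrays and put on the log2 scale. Of 45281 probes, 34885 had 1 gene symbol in the platform annotation, which can be old. The probe of highest mean over the 24 arrays stood for each of 19057 genes. Of 231 genes taken by the naming rules below, 80 had another probe above background on at least 3 of the 6 SMA arrays. For 25 of these such a probe had the opposite sign, and the text gives other probes for some genes only. limma fitted 1 mean per group (8 groups, 16 residual degrees of freedom, mean-variance trend, Benjamini-Hochberg over all genes tested, threshold 0.05) and was tested on simulated data. With 3 against 3, an exact permutation test of 1 gene could not go below 0.1. The precision is limited by the number of arrays.

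Named genes were the 12 largest rises and falls with no overlap between columns, above background on at least 2 of 3 arrays of both, the 6 largest bounds each way, the genes of smallest p in the genotype difference, up to 6 members of each list by p, and a fixed set such as Isl1, Foxp1 and Lhx3. The genes and the 38 lists were chosen with earlier results of these data known. Same-numbered replicates of the 2 columns did not deviate together in SMA (correlations of -0.0385 to 0.00546), so they were not paired. Alternatives changed the spread, normalization, offset, filter, probe, weights, block and arrays.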

Additional observations from a re-analysis of the deposited data

Results flagged for a closer look

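Only the genotype difference in the column contrast could mark genes for a closer look, since groups of 3 arrays were not screened for single outlying samples. Ranbp3l, which is similar to a Ran-binding protein, had an SMA minus WT difference of 5.23 (adjusted p = 0.0194). Its levels were 6.03, 7.30 and 5.53 in SMA LMC, against 4.53, 4.89 and 4.75 in SMA MMC, and in WT 4.47, 4.80 and 5.87 in WT LMC, against 8.06, 7.76 and 10.33 in WT MMC. It was above background on 0 of 3 SMA MMC arrays and on 1 of 3 WT LMC arrays, so the size of this difference depends on levels at background. The call was lost in 5 of 23 alternatives, among them the spread of 12 arrays (adjusted p = 0.618) and the fits without WT LMC replicate 1 (adjusted p = 0.0881) or 2 (adjusted p = 0.0539). WT MMC replicate 3 was the highest of these arrays. The values on the WT MMC arrays were above those on all other motor column arrays. Dennd3 had an SMA minus WT difference of -2.13 (adjusted p = 0.0328). The call was lost in 11 of 23 alternatives, 7 of them fits with 1 array left out (adjusted p = 0.0532 to 0.129, and 0.0562 without SMA LMC replicate 2). It was above background on the 3 SMA MMC arrays, with 4.85, 4.50 and 4.79 in SMA LMC, against 6.88, 6.08 and 7.46 in SMA MMC, on no SMA LMC array and on none of the 6 WT arrays, with 4.52, 4.66 and 4.64 in WT LMC, against 4.80, 4.47 and 4.44 in WT MMC, so the fitted difference is no bound.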

How the results depend on the processing

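The counts of calls depended most on the spread. The 12 motor column arrays gave 119 genes higher, 66 lower and 0 with a genotype difference, and the 6 SMA arrays gave 12 and 14. Normalized over those 6 arrays alone the counts were 11 and 14, and neither of these settings can give the genotype difference. Without the detection filter 291 were higher and 189 lower, and with detection on all arrays compared 292 and 147, with 0 for the genotype difference. Array weights gave 308 higher. The genotype difference had 4 calls without the quantile step, with offset 50 and with array weights, 5 with the mean of all probes, 1 at a detection p under 0.01 and 0 without the variance trend. With 1 array left out, 195 to 610 genes were higher, 128 to 480 lower and 0 to 11 had a genotype difference. Without the quantile step the median over all genes moved by 0.0988. Same-numbered samples did not deviate together in SMA, and a fit with the replicate block gave 448 higher, 288 lower and 3 with a genotype difference. Each WT array correlated best with its own number and no SMA array did. Aif1 turned to -0.28 without SMA MMC replicate 1 (-0.28 to 1.31 over the arrays left out), and Sox10 to 0.31 without SMA LMC replicate 3 and 0.12 without SMA MMC replicate 1 (-0.40 to 0.31), none of them past the threshold. The cause of these shifts was not tested. Of 100 named genes that passed, 52 passed with each SMA array left out in turn and 48 did not, 19 passed in every alternative with a value, 81 missed the threshold in 1 or more (9 in most of them), and 0 reversed in any. Of the 36 largest rises, falls and bounds, 33 passed with the spread of 12 arrays, 16 with that of 6 arrays and 31 without SMA LMC replicate 2. Levels near background limit what dim genes can show.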
